A study of Mus musculus with 2 samples.

Results

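Satellite glia are the cells that wrap the cell bodies of sensory neurons, and 10 genes known as markers of these cells or of their relatives were followed here across the nuclei of mouse vagus nerve ganglia. The genes were *Fabp7*, *Ednrb*, *Apoe*, *Glul*, *Gja1*, *Sox10*, *Sox2*, *Ptprz1*, *Acsbg1* and *Gfap*, found by their symbols among the 32286 genes of the count matrix. Single-nucleus RNA sequencing was done on 1 pool of 14 ganglia from 7 females and 1 pool of 16 ganglia from 8 males, bought at 8 to 9 weeks of age and kept on standard chow. All mice were C57BL/6J animals with a *Rosa26*-floxed-STOP-Cas9-eGFP allele, and all had received AAVrg-Cre, a retrograde virus that carries Cre recombinase, in the liver 4 weeks earlier, so that no group without virus or without the allele stands beside them. The female library held 3791 nuclei and 17435300 unique molecular identifiers (UMIs, each standing for a captured RNA molecule), and the male library held 4923 nuclei and 27529730 UMIs. Nuclei carry no label of sex, and a sex was given to each library because its number of nuclei equals that stated for females or males. Each sex has 1 library, so that no test could be made between the sexes and what is particular to a library cannot be told apart from sex. Of the barcode sequences, 8 occurred in both libraries.

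Satellite glia derive from the neural crest, as Schwann cells do, and form a thin sheath around each sensory cell body. They are known for taking up glutamate and potassium, for coupling through gap junctions and for supplying lipid to neurons. In the central nervous system, astrocytes use many of the same genes, which is why markers shared with astrocytes are often used for satellite glia.

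Nuclei were placed in classes by clustering without the 10 genes, and each cluster took its name from markers that are not among them. Clusters 2, 10 and 17 were satellite glia-like and held 557 female and 812 male nuclei, with a median of 2099 and 2253 UMIs per nucleus. Clusters 5, 14 and 18 were myelinating Schwann cell-like (545 and 701 nuclei, median 1775 and 1985 UMIs), and clusters 3, 8, 9, 13 and 15 were neuron-like (670 and 1604 nuclei, median 5708 and 7571 UMIs). The nearest average profiles of the study carry the names VN5, VN6 and VN10 for clusters 2, 10 and 17, and SC1, SCH and SC2 for clusters 5, 14 and 18. The prefix VN stands for vagal sensory neurons and SC for satellite cells, so the names used here differ from those names, which may come from the rebuilt clusters and from the choice of markers.

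The 14 satellite glia markers outside the 10 genes, such as *Kcnj10*, *Cdh19* and *Erbb3*, all had UMIs in each library in clusters 2, 10 and 17. Their mean log2 fold over the other clusters was 0.87, 0.85 and 1.09, and 10, 8 and 8 of them reached 1.5-fold. Other lists were raised beside them, among them the astrocyte, oligodendrocyte and sympathetic neuron lists, which were read as a check and could name no cluster. In cluster 10 the astrocyte list had a mean log2 fold of 0.99 with 5 of 8 markers past 1.5-fold, above the 0.85 of the satellite glia list. In cluster 17 the oligodendrocyte list had 0.74 with 2 markers, and in cluster 2 the sympathetic neuron list had 0.74 and the nonmyelinating Schwann cell list had 0.61. The summed level of the astrocyte list in cluster 10 was 2.42 female and 0.990 male UMIs per 10000, against 0.666 and 0.602 in cluster 2, and the part of such cells in the values below was not tested. Libraries were unevenly spread: cluster 2 held 61 female and 544 male nuclei, cluster 10 held 233 and 204, and cluster 17 held 263 and 64, so that clusters 2 and 17 may each be a library as much as a type of cell. The same holds for the Schwann cell-like clusters 5 (20 and 516 nuclei) and 18 (285 and 30).

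The genes lie on 9 chromosomes of mm10 and were placed with GENCODE M21. *Fabp7* (chr10:57784881-57788450, plus strand) and *Gja1* (chr10:56377330-56402513, plus strand) share a chromosome. *Ednrb* (chr14:103814625-103844402, minus), *Apoe* (chr7:19696109-19699188, minus), *Glul* (chr1:153899944-153909723, plus) and *Sox10* (chr15:79154908-79165240, minus) each lie on another chromosome, as do *Sox2* (chr3:34650405-34652461, plus), *Ptprz1* (chr6:22875502-23052916, plus), *Acsbg1* (chr9:54604877-54661870, minus) and *Gfap* (chr11:102887336-102900912, minus). Because introns were counted, gene structure bears on what a UMI can come from. *Ptprz1* is 92.0% and *Acsbg1* 93.7% intron, whereas *Sox2* has no intron. *Sox2* lies wholly within *Sox2ot*, a noncoding gene on the same strand with 5217 UMIs in all nuclei and 2545 in satellite glia-like nuclei, and the sources used here do not give how reads of the shared bases were divided. *Gfap* lies within *Gm26668* on the opposite strand, and *Glul* shares 285 bases with *Teddm2* on the opposite strand.

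Because levels of several of the genes ran together across clusters, their promoters were searched for the letters ACAAAG and ACAATG, cores of the sites that SOX proteins are known to bind, on both strands (CTTTGT and CATTGT are the same letters read on the other strand). RefSeq promoters (GRCm38.p6) of 300 bases, 250 before and 50 after the start, were matched for 9 of the 10 genes, *Sox10* not being among them. Starts are those of RefSeq and can differ from the GENCODE starts above. Of the 11 promoters of these 9 genes, 2 held either motif, those of *Apoe* and *Sox2*, where 28.6% of all 32851 promoters did (ACAAAG 18.7%, ACAATG 12.6%). The 250 bases before the start are shown for these 2 genes and for *Fabp7*, whose levels followed those of *Apoe* across clusters, with motif matches in capitals, read on the strand of the gene. The *Apoe* stretch is chr7:19699189-19699438 (minus strand, matches at -54 and -144 from the start), that of *Sox2* is chr3:34649745-34649994 (plus, match at -206) and that of *Fabp7* is chr10:57784673-57784922 (plus, no match).
Apoe: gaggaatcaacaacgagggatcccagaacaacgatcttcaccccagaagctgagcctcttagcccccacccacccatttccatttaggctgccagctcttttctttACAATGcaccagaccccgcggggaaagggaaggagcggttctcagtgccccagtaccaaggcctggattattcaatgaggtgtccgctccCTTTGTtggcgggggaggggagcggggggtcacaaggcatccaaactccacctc
Sox2: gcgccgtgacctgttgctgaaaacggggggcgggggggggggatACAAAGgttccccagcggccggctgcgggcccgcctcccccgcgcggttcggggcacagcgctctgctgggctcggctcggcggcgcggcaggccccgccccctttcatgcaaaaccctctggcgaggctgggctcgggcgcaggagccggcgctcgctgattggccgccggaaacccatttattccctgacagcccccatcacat
Fabp7: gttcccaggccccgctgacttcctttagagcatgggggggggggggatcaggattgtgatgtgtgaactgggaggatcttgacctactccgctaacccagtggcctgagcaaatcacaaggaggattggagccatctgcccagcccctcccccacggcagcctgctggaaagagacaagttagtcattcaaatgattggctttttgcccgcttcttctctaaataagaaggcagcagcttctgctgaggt
A match is a run of letters and not a shown binding site, and a promoter without one says nothing about SOX proteins at that gene.

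The 10 genes did not share 1 pattern over the 20 clusters. Over both libraries, the cluster with the highest level was satellite glia-like for *Fabp7*, *Ednrb*, *Apoe*, *Sox10*, *Sox2*, *Ptprz1* and *Acsbg1*, whereas *Glul* was highest in adipocyte-like and *Gja1* in barrier fibroblast-like nuclei, and *Gfap* was near 0 everywhere. Satellite glia-like nuclei held 8.96% of all UMIs. They held 56.6% of the UMIs of *Acsbg1*, 44.4% of *Sox2*, 44.1% of *Ptprz1*, 39.6% of *Sox10*, 36.9% of *Ednrb*, 30.4% of *Fabp7* and 29.4% of *Apoe*. The shares of *Gja1* (14.5%) and *Glul* (10.8%) were nearer to the share of all UMIs. By these levels the name satellite glia genes described 7 of the 10, and of those *Sox10* was at a like level in Schwann cell-like nuclei.

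**Figure D1:**
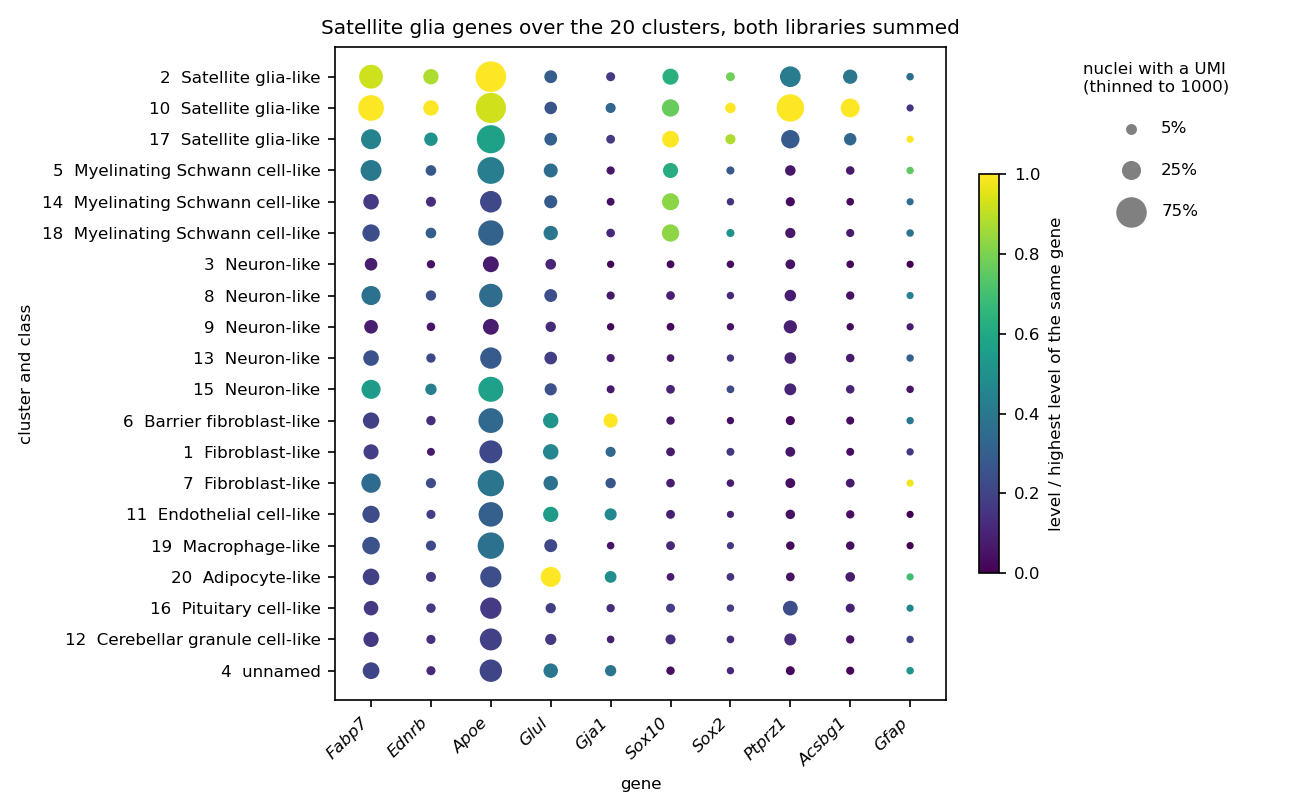
Levels of the 10 genes (columns) in the 20 clusters (rows, with class), both libraries summed. Colour is the level divided by the highest level of the same gene, and dot area is the percent of nuclei with a UMI after thinning to 1000 UMIs. *Sox2* and *Sox10* are bright in the satellite glia-like rows, and *Sox10* in Schwann cell-like rows as well. *Ptprz1* and *Acsbg1* are brightest in cluster 10 (levels of 9.87 and 2.98) and dimmer in the other satellite glia-like rows (2.797 and 0.967 in cluster 17). *Fabp7*, *Ednrb* and *Apoe* are bright in the satellite glia-like rows other than cluster 17. For these genes cluster 17 (3.998, 0.937 and 12.17) is close to the neuron-like cluster 15 (4.878, 0.795 and 11.99). *Glul* and *Gja1* are brightest in adipocyte-like and barrier fibroblast-like rows.

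Levels are UMIs of a gene per 10000 UMIs of a class, with exact 95% Poisson intervals in parentheses. Ratios are log2 ratios of levels with exact conditional 95% intervals, and shares of nuclei with a UMI carry 95% Clopper-Pearson intervals. These intervals hold the error of counting alone, and nothing of how mice vary. To compare shares across depths, each nucleus was thinned to 1000 UMIs, which left out 19 female nuclei of 980 UMIs or more but under 1000. Endothelial cell-like nuclei (217 female and 193 male, median 2103 and 2307 UMIs) and macrophage-like nuclei (136 and 136, median 1723 and 1874) are cells in which most of these genes should be absent, and their values are given as background. The part of RNA from outside the nuclei in the values of any class was not tested. *Apoe*, which macrophages make, and *Glul*, *Gja1* and *Ednrb*, which vessels can make, are exceptions.

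*Fabp7*, *Apoe* and *Acsbg1*, which act in lipid handling, were each at least 2-fold higher in satellite glia-like than in Schwann cell-like and neuron-like nuclei in both libraries. *Fabp7* encodes the brain-type fatty acid-binding protein of radial and satellite glia. Its level in satellite glia-like nuclei was 5.95 (5.58 to 6.34) and 8.93 (8.56 to 9.32) in the female and male library. Schwann cell-like nuclei had 1.803 and 2.89, and neuron-like nuclei 0.986 and 1.92. Within each library the satellite glia-like value was thus above both others, by 3.29- and 3.09-fold over Schwann cell-like and 6.03- and 4.66-fold over neuron-like nuclei. A UMI of *Fabp7* was found in 56.4% and 74.8% of satellite glia-like nuclei as sequenced, and in 34.7% (30.7 to 38.8) and 47.04% (43.6 to 50.5) after thinning. Thinned shares were 13% (10.6 to 15.8) and 17.2% (15.4 to 19.1) in neuron-like nuclei and 14.8% (9.29 to 21.95) and 26.5% (19.3 to 34.7) in macrophage-like nuclei. The neuron-like share of *Fabp7*, for the class as a whole, did not exceed that of macrophages in either library. Whether it is background was not tested. Schwann cell-like shares (17.6% and 27.7%) were within the intervals of the macrophage-like ones. Among neuron-like clusters, 8 (3.01 and 3.49) and 15 (3.83 and 5.04) had levels above the macrophage-like 1.47 and 3.01. The male macrophage-like level rests on 87 UMIs, and its interval held the male value of cluster 8.

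*Apoe* encodes the apolipoprotein with which glia hand cholesterol to other cells. Satellite glia-like nuclei had levels of 18.7 (17.98 to 19.3) and 19.4 (18.9 to 19.96) in the female and male library, Schwann cell-like nuclei 5.56 and 7.48, and neuron-like nuclei 2.93 and 4.32. The satellite glia-like level was the highest of the 3 in each library, by 3.35- and 2.59-fold over Schwann cell-like and 6.36- and 4.49-fold over neuron-like nuclei. After thinning, 67.9% and 74.6% of satellite glia-like nuclei had a UMI. Macrophage-like nuclei, in which *Apoe* is made, had 48.9% and 59.6%, and endothelial cell-like nuclei 41.9% and 50.3%. The Schwann cell-like shares of 43.4% and 50.2% were close to the endothelial ones, and the neuron-like shares of 27.2% and 29.7% were below them. Whether the neuron-like shares are background was not tested. Neuron-like clusters 8 (7.23 and 7.503) and 15 (12.3 and 11.9) had levels above the endothelial cell-like 6.11 and 6.52.

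*Acsbg1* encodes bubblegum acyl-CoA synthetase, which activates long-chain fatty acids. Its satellite glia-like levels were 1.96 (1.75 to 2.19) and 1.71 (1.55 to 1.89), its Schwann cell-like levels 0.126 and 0.169, and its neuron-like levels 0.116 and 0.135. The ratio to Schwann cell-like nuclei was 15.1- and 9.97-fold, and that to neuron-like nuclei 16.8- and 12.7-fold. In both libraries *Acsbg1* was low outside satellite glia-like nuclei. Endothelial cell-like nuclei held 5 and 8 UMIs of it and macrophage-like nuclei 2 and 5, with intervals that reach above the Schwann cell-like and neuron-like levels.

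Both receptors had their highest level in a satellite glia-like cluster. *Ptprz1* encodes a receptor-type tyrosine phosphatase that binds pleiotrophin, contactin and tenascins, and is known from astrocytes and oligodendrocyte precursors. Satellite glia-like levels of *Ptprz1* were 7.35 (6.93 to 7.78) and 5.12 (4.84 to 5.41) in the female and male library. In Schwann cell-like nuclei they were 0.449 (0.34 to 0.582) and 0.481 (0.386 to 0.592), and in neuron-like nuclei 0.883 (0.819 to 0.951) and 0.707 (0.669 to 0.746). Satellite glia-like nuclei stood 16.2- and 10.6-fold above Schwann cell-like nuclei, and neuron-like nuclei lay between these classes. After thinning, 7.47% (5.598 to 9.74) and 5.49% (4.42 to 6.72) of neuron-like nuclei had a UMI, against 1.48% (0.1799 to 5.25) and 1.47% (0.179 to 5.21) of macrophage-like nuclei. In the order of clusters, 10 came first with 9.87 over both libraries, followed by 2 with 4.07, 17 with 2.797 and the pituitary cell-like cluster 16 with 2.29. Neighbours in this order were apart beyond counting error down to cluster 17, whose interval met that of cluster 16.

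*Ednrb* encodes the endothelin B receptor, which neural crest cells and their glia use. It was measured at 1.47 (1.29 to 1.68) and 1.66 (1.499 to 1.83) in satellite glia-like, 0.347 and 0.442 in Schwann cell-like and 0.1702 and 0.282 in neuron-like nuclei. Satellite glia-like nuclei were 4.21- and 3.73-fold above Schwann cell-like and 8.64- and 5.87-fold above neuron-like nuclei. Endothelial cell-like levels of 0.289 (0.169 to 0.463) and 0.375 (0.238 to 0.562) had intervals that held the Schwann cell-like values. Clusters 10 (1.84) and 2 (1.62) led, with intervals that overlapped over both libraries, although the log2 ratio of cluster 10 to 2 was -0.11 (-0.57 to 0.38) in the female and 0.36 (0.05 to 0.66) in the male library. They were followed by 17 (0.937) and the neuron-like cluster 15 (0.795), whose intervals also met.

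*Glul* and *Gja1* had their highest level outside satellite glia-like nuclei. *Glul* encodes glutamine synthetase, which turns glutamate into glutamine and is widely used to stain satellite glia. Its level was 0.967 (0.8202 to 1.13) and 1.01 (0.892 to 1.15) in satellite glia-like, 1.25 (1.07 to 1.46) and 1.103 (0.956 to 1.27) in Schwann cell-like and 0.456 and 0.529 in neuron-like nuclei. *Glul* was thus no higher in satellite glia-like than in Schwann cell-like nuclei, with log2 ratios of -0.37 (-0.70 to -0.04) and -0.12 (-0.40 to 0.15). The first of these intervals leaves out 0 and the second holds it. Over neuron-like nuclei the log2 ratio was 1.09 (0.80 to 1.36) and 0.94 (0.73 to 1.14), just past 2-fold in the female and just under it in the male library. Levels above these were found in endothelial cell-like nuclei (1.36 and 2.48) and adipocyte-like nuclei (3.85 and 2.45). After thinning, the mean log2 ratio to neuron-like nuclei was 0.40 instead of 1.01, and the shares of nuclei were 8.48% and 8.25% in satellite glia-like and 8.07% and 5.67% in neuron-like nuclei.

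*Gja1* encodes connexin 43, a gap junction protein of astrocytes, satellite glia and many connective tissue cells. It was sparse, with 56 female and 68 male UMIs in satellite glia-like nuclei, a level of 0.354 (0.268 to 0.4598) and 0.278 (0.216 to 0.353). Schwann cell-like nuclei had 0.0788 and 0.0929 (from 10 and 17 UMIs) and neuron-like nuclei 0.0438 and 0.0444. Satellite glia-like nuclei were above both, with log2 ratios of 2.11 and 1.55 to Schwann cell-like and 3.01 and 2.65 to neuron-like nuclei. Barrier fibroblast-like nuclei had more of it, 1.58 (1.31 to 1.895) and 1.15 (0.942 to 1.38), and cluster 10, the first satellite glia-like cluster in the order, came sixth with 0.438. Barrier fibroblast-like nuclei held 26.6% of all *Gja1* UMIs. With nuclei thinned, the mean log2 ratio of *Gja1* was 2.05 over neuron-like nuclei instead of 2.83, and 1.19 over Schwann cell-like nuclei instead of 1.83.

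Of the SOX transcription factors, *Sox10* marks all neural crest glia, and *Sox2* is kept in glia that have not formed myelin. *Sox10* had levels of 1.903 (1.69 to 2.13) and 1.55 (1.401 to 1.72) in satellite glia-like and 1.99 (1.75 to 2.25) and 1.497 (1.33 to 1.69) in Schwann cell-like nuclei. The intervals of these classes overlapped in each library, and neuron-like nuclei had 0.0788 and 0.11. The ratio of satellite glia-like to neuron-like nuclei was 23.99- and 14.1-fold. Thinned shares of nuclei with *Sox10* were 20.2% and 16.3% in satellite glia-like, 20.04% and 14.4% in Schwann cell-like and 0.299% and 1.31% in neuron-like nuclei. Macrophage-like shares were 1.48% and 2.21%, with wide intervals that held the neuron-like shares. Whether the neuron-like shares are background was not tested. The first 6 clusters were the 3 satellite glia-like and the 3 Schwann cell-like ones, from 2.27 in cluster 17 to 1.42 in cluster 5, with the interval of each meeting that of the next. A gap followed, with 0.408 in cluster 16.

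*Sox2* was sparse, with 129 female and 204 male UMIs in all nuclei. Its satellite glia-like level was 0.398 (0.306 to 0.5096) and 0.348 (0.278 to 0.4298), its Schwann cell-like level 0.118 (0.0661 to 0.195) and 0.109 (0.0667 to 0.169), and its neuron-like level 0.0213 and 0.0406. In each library the satellite glia-like interval lay above both others, 3.29- and 3.12-fold over Schwann cell-like nuclei. With each cluster given the same weight, the mean log2 ratio to Schwann cell-like nuclei was 0.96 instead of 1.68, and *Sox2* was then no longer past 2-fold in each library. Clusters 10 (0.418), 17 (0.366) and 2 (0.328) led, with intervals that overlapped.

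*Gfap*, the intermediate filament of astrocytes that satellite glia are known to raise after nerve injury, was close to absent. All nuclei together held 42 UMIs of it, 13 female and 29 male. Satellite glia-like nuclei had 3 and 4 UMIs, endothelial cell-like and macrophage-like nuclei 0, and no cluster more than 4. Neuron-like nuclei, with more UMIs in all, had 1 and 8 UMIs, and Schwann cell-like nuclei 2 and 5. Over both libraries the log2 ratio of satellite glia-like to neuron-like nuclei was 2.37 (0.69 to 3.95), from 7 and 9 UMIs, and that to Schwann cell-like nuclei was -0.38 (-2.12 to 1.36), from 7 and 7. In the male library alone the ratio to neuron-like nuclei was 1.998 (-0.27 to 3.82). The female counts were at or under 3 UMIs, the number that a count of 0 allows, and no ratio is given for them. With so few UMIs *Gfap* was left out of the counts of genes that follow.

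**Figure D2:**
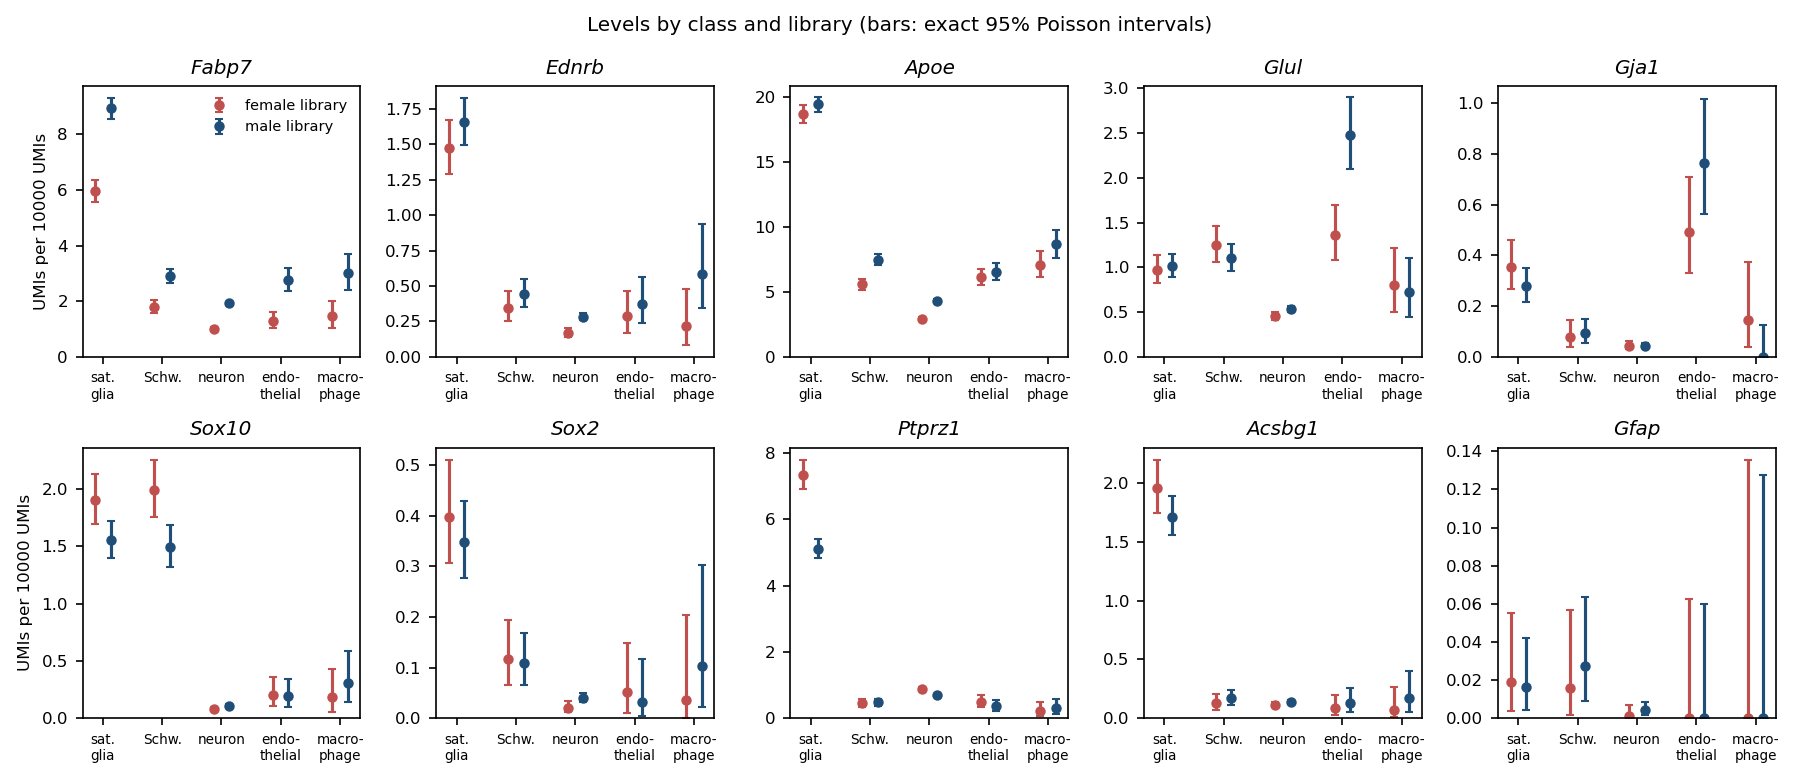
Level of each gene (UMIs per 10000 UMIs, each panel with its own axis from 0) in satellite glia-like, myelinating Schwann cell-like (Schw.), neuron-like, endothelial cell-like and macrophage-like nuclei. Points are the female and male library and bars exact 95% Poisson intervals. The satellite glia-like points are highest in both libraries for *Fabp7*, *Ednrb*, *Apoe*, *Sox2*, *Ptprz1* and *Acsbg1*, while *Sox10* is as high in Schwann cell-like and *Glul* and *Gja1* are higher in endothelial cell-like nuclei. For *Gja1* the log2 ratio of satellite glia-like to endothelial cell-like nuclei was -0.49 (-1.15 to 0.22) female and -1.47 (-2.02 to -0.89) male, and the female interval holds 0.

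Set against neuron-like nuclei, 8 of the 9 genes with enough UMIs (at least 20 over the compared classes in each library, which leaves out *Gfap*) were at least 2-fold higher in satellite glia-like nuclei in both libraries, *Glul* being the exception, and 0 were lower. Over all 15112 genes tested, 11.0% were higher and 11.6% lower by the same rule. The median log2 ratio of the 9 genes was 3.06 (female) and 2.65 (male), and over all genes 0.15 and 0.12. Against Schwann cell-like nuclei, 7 of 9 were at least 2-fold higher, all but *Glul* and *Sox10*, and 0 lower, where 5.07% of 11637 genes were higher and 4.16% lower. Here the median log2 ratio was 1.75 and 1.63, and over all genes 0.00 and -0.01. These genes are known as glial markers, and the nuclei were placed in classes by other genes of the same nuclei, so the counts describe the classes and are no test. The ratios to Schwann cell-like nuclei were widest for *Ptprz1*, with 4.02 (3.65 to 4.44) and 3.404 (3.099 to 3.74), and *Acsbg1*, with 3.92 (3.24 to 4.78) and 3.32 (2.81 to 3.91). To neuron-like nuclei, *Sox10* had the widest ratio, 4.58 (4.198 to 5.01) and 3.82 (3.57 to 4.07). *Glul* also passed 2-fold over neuron-like nuclei where only nuclei of over 2000 UMIs were kept. Where each cluster had the same weight, *Gja1* and *Sox2* no longer passed over Schwann cell-like nuclei, which left 5 of 9.

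**Figure D3:**
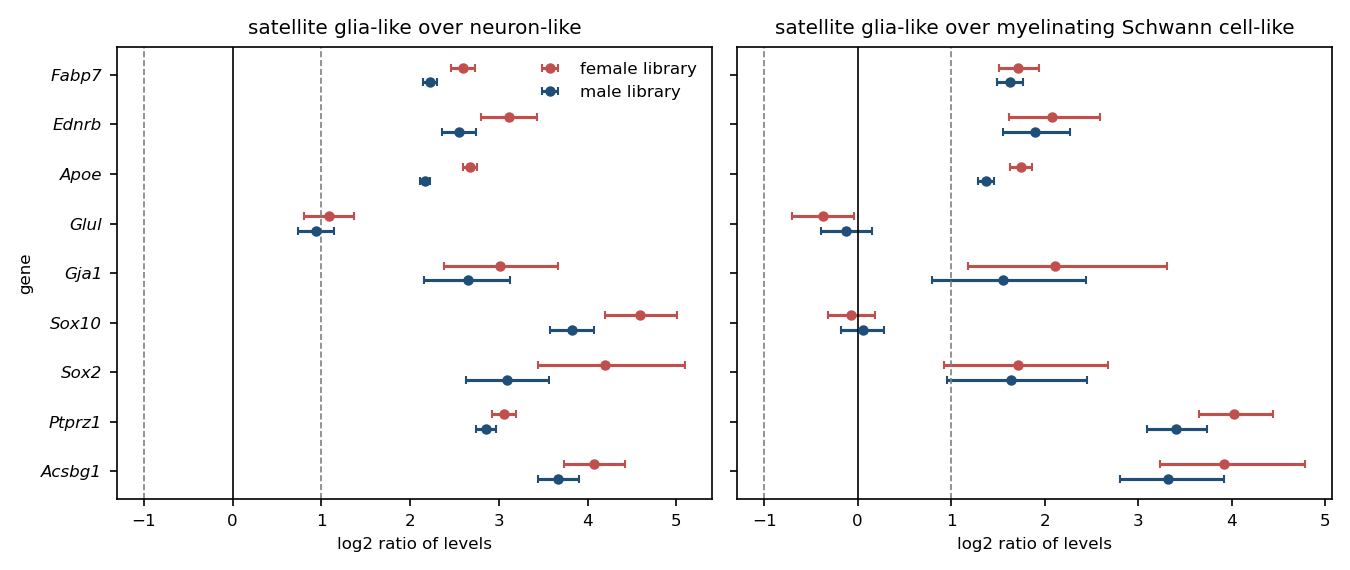
Log2 ratio of the level in satellite glia-like nuclei to that in neuron-like (left) and myelinating Schwann cell-like nuclei (right) for 9 genes in each library, with exact 95% intervals. Dashed lines mark 2-fold. On the left *Glul* sits at the 2-fold line and the others past it, and on the right *Glul* and *Sox10* sit near or below 0 and the others past the line.

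Neuron-like nuclei were not alike in these genes. Cluster 15, with 36 female and 308 male nuclei, had the highest neuron-like levels of *Fabp7* (3.83 and 5.04), *Apoe* (12.3 and 11.9) and *Ednrb* (0.656 and 0.816). In cluster 9, another neuron-like cluster, they were 0.534 and 0.855, 1.58 and 1.68, and 0.112 and 0.0941. Cluster 15 was thus above cluster 9 in both libraries for all 3 genes, and over both libraries by 6.39-fold for *Fabp7*, 7.26-fold for *Apoe*, 7.99-fold for *Ednrb*, 4.31-fold for *Sox10* and 4.02-fold for *Acsbg1*, but 1.25-fold for *Ptprz1*. For *Fabp7*, *Apoe* and *Ednrb*, the neuron-like clusters 8 and 13 lay between them over both libraries. Cluster 8 had 3.34, 7.42 and 0.44, and cluster 13 had 2.25, 5.99 and 0.409. Cluster 3 was close to cluster 9, with 0.665, 1.49 and 0.0833. Along with these genes, the summed level of the 14 satellite glia markers was 16.8 female and 19.0 male UMIs per 10000 in cluster 15 and 7.88 and 8.19 in cluster 9. The 6 sympathetic neuron markers had a mean log2 fold of 1.19 in cluster 15, above the 0.88 of the neuron list, with levels of 0.673 and 7.03. The part of glial RNA that came with these nuclei in their levels was not tested. Without cluster 15, a setting chosen after seeing the data, all 9 genes were at least 2-fold higher in satellite glia-like than in neuron-like nuclei (12.4% of all genes), and the mean log2 ratio was 2.99 instead of 2.41 for *Fabp7*, 3.07 instead of 2.42 for *Apoe* and 3.51 instead of 2.83 for *Ednrb*.

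The 3 satellite glia-like clusters differed most in *Ptprz1* and *Acsbg1*. *Ptprz1* was 11.4 (10.6 to 12.1) female and 8.23 (7.58 to 8.93) male in cluster 10, 4.43 and 4.004 in cluster 2, and 2.91 and 2.48 in cluster 17. The order was the same in both libraries, with log2 ratios of cluster 10 over 17 of 1.96 (1.71 to 2.23) and 1.72 (1.29 to 2.21). *Acsbg1* was 3.07 and 2.89 in cluster 10, 0.799 and 1.26 in cluster 2 and 0.9502 and 1.01 in cluster 17, so that cluster 10 led here as well, by a log2 ratio over cluster 2 of 1.91 (1.33 to 2.61) and 1.19 (0.90 to 1.48). By the rule of 2-fold between the highest and lowest cluster in each library, 3 of 9 genes differed, these and *Gja1*, against 14.9% of 9708 genes. The call of *Gja1* rests on few UMIs, 6 and 37 in cluster 2, 36 and 29 in cluster 10 and 14 and 2 in cluster 17, with another lowest cluster in each library, and it was lost with nuclei thinned or weighted equally. The levels of *Ptprz1* and *Acsbg1* in clusters 2 and 17 were above the Schwann cell-like levels of 0.449 and 0.481 and of 0.126 and 0.169, and the part of astrocyte-like cells in cluster 10 was not tested.

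*Apoe*, *Fabp7* and *Ednrb* were lowest in cluster 17 in both libraries. *Apoe* was 24.2 and 20.6 in cluster 2, 20.5 and 18.7 in cluster 10, and 12.4 and 11.4 in cluster 17. *Fabp7* was 5.79 and 8.7, 7.34 and 10.6, and 3.9 and 4.28 in the same order. *Sox10* ran the other way, with 2.14 and 2.64 in cluster 17 and 1.47 and 1.44 in cluster 2, a log2 ratio of 0.54 (0.03 to 1.09) and 0.89 (0.40 to 1.34). Because clusters 2 and 17 are each mostly from 1 library, nuclei were also clustered with each gene scaled within its library, which gave clusters 5, 11 and 14 with 210 and 310, 194 and 263, and 153 and 240 female and male nuclei. The naming rule called all 3 satellite glia-like, but the name of cluster 11 is the least sure, since its 10 leading genes held 0 markers of its own list and 1 of the nonmyelinating Schwann cell list, and its astrocyte list had a mean log2 fold of 0.91 against 0.82 for the satellite glia list. The clusters are therefore compared by number. *Ptprz1* was then 4.004 and 3.904, 11.7 and 8.02, and 2.301 and 1.93 in these clusters, so that a cluster high in *Ptprz1* was found with that scaling too. *Acsbg1* was highest in the same cluster, with 3.22 and 2.68, and *Sox10* had intervals that overlapped among these clusters.

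**Figure D4:**
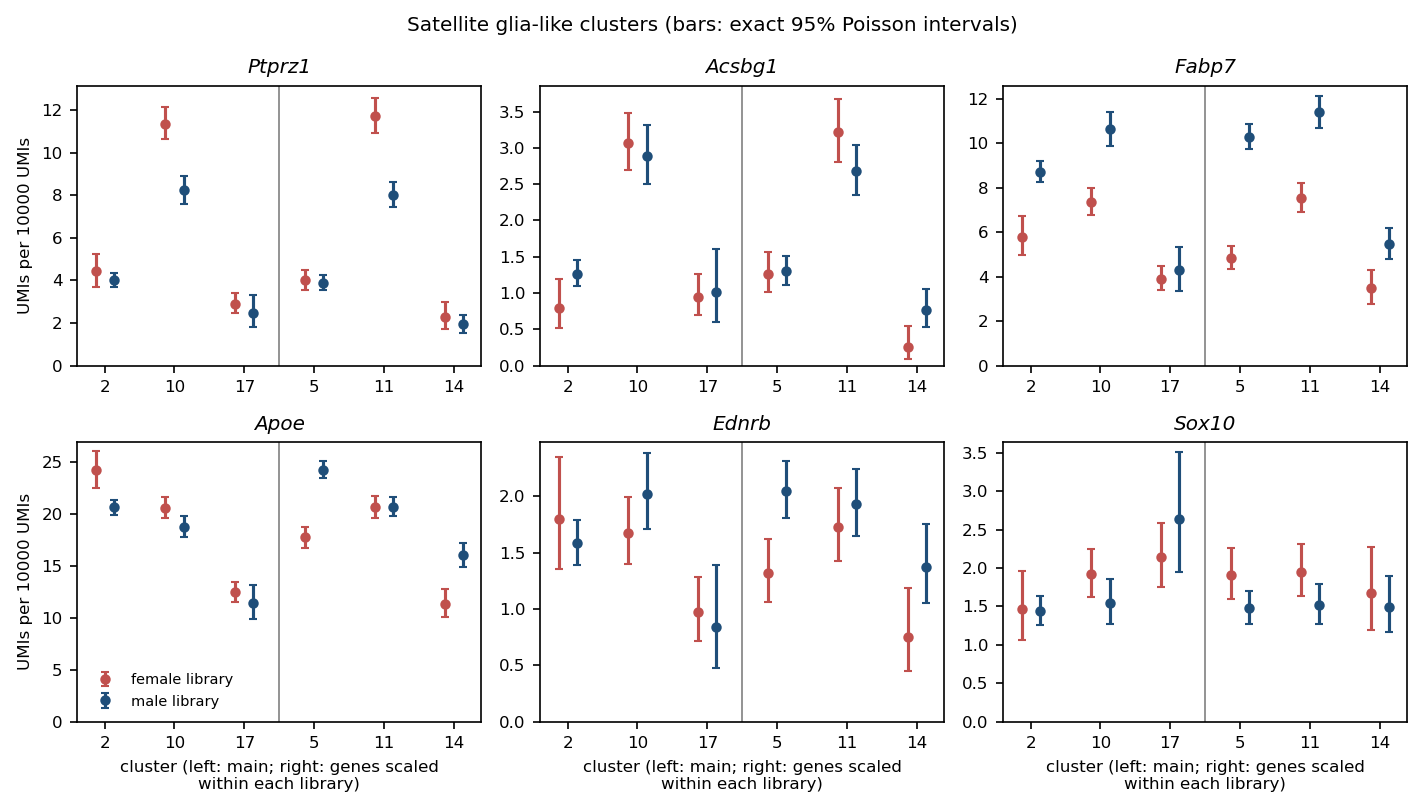
Level (UMIs per 10000 UMIs) of 6 genes in the satellite glia-like clusters 2, 10 and 17 (left of the line) and in clusters 5, 11 and 14 of a clustering with genes scaled within each library (right of the line, numbered anew), by library, with exact 95% Poisson intervals. *Ptprz1* and *Acsbg1* stand out in cluster 10 and in cluster 11 of the second clustering, in both libraries.

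Between the libraries, 0 of 9 genes reached 2-fold in satellite glia-like nuclei, where 2.12% of 10651 genes were higher in the male and 1.34% in the female library. The log2 ratio of male to female was 0.59 (0.48 to 0.70) for *Fabp7* and -0.52 (-0.64 to -0.41) for *Ptprz1*, the 2 genes farthest from 0. For *Sox10* it was -0.29 (-0.51 to -0.07), and for the other 6 genes the interval held 0. Male and female nuclei of this class are spread differently over clusters 2, 10 and 17, so ratios within clusters are given beside these. *Fabp7* was at 0.58 (0.36 to 0.82) in cluster 2, 0.53 (0.37 to 0.69) in cluster 10 and 0.14 (-0.27 to 0.52) in cluster 17, and *Ptprz1* at -0.15 (-0.42 to 0.14), -0.46 (-0.62 to -0.31) and -0.22 (-0.75 to 0.26). For *Ptprz1* the interval left out 0 in cluster 10 alone, where the summed level of the astrocyte list was also higher in the female library. The part of astrocyte-like cells in the *Ptprz1* ratios was not tested. *Sox10* was at -0.04 (-0.50 to 0.47), -0.31 (-0.69 to 0.05) and 0.31 (-0.22 to 0.81), with no interval that left out 0. In the clusters from genes scaled within each library, *Fabp7* was at 1.09 (0.92 to 1.27) in cluster 5, past 2-fold as 3.46% of all genes were in the male direction there, 0.59 (0.44 to 0.75) in cluster 11 and 0.64 (0.29 to 1.03) in cluster 14. There *Acsbg1* passed 2-fold in cluster 14, from 6 female and 35 male UMIs and beside 5.08% of all genes, with 1.503 (0.33 to 3.14). *Sox10* was at -0.37 (-0.69 to -0.03), -0.36 (-0.72 to -0.01) and -0.17 (-0.74 to 0.44) in the same clusters, with 0 left out of the intervals of the first pair. *Fabp7* was higher in the male library in all 10 named classes, from 0.16 in cerebellar granule cell-like to 1.08 in endothelial cell-like nuclei, and *Apoe* in 9 of 10. *Ptprz1* was higher in the female library in 7 of 8 classes with enough UMIs. Over all genes the median log2 ratio in satellite glia-like nuclei was 0.00, and sex, library and the RNA that surrounds nuclei in a library cannot be told apart in these ratios.

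Single nuclei often held several of the genes. After thinning to 1000 UMIs, a female satellite glia-like nucleus had a UMI of 2.04 of the 10 genes on average, or 2.18 in male nuclei. Schwann cell-like nuclei had 1.04 and 1.13, and neuron-like nuclei 0.596 and 0.645. At least 3 genes were seen in 33.8% and 37.8% of satellite glia-like nuclei, 5.94% and 7.28% of Schwann cell-like, 1.495% and 2.68% of neuron-like and 4.19% and 5.699% of endothelial cell-like nuclei. The highest number in a nucleus was 6 (female) and 5 (male). Among satellite glia-like clusters the mean was 2.52 and 2.65 in cluster 10, 2.1 and 2.04 in cluster 2, and 1.59 and 1.81 in cluster 17.

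Within satellite glia-like nuclei, *Fabp7* and *Apoe* were the pair whose intervals with and without the partner were apart, and this was so in the male library. The pairs given here were chosen after their values were seen. *Apoe* was found in 71.9% (64.95 to 78.1) of female nuclei with *Fabp7* and 65.8% (60.6 to 70.6) of those without it, and in 79.3% (74.9 to 83.3) of male nuclei with *Fabp7* and 70.5% (65.9 to 74.7) of those without it. *Acsbg1* was found in 18.2% (13.3 to 23.9) of female nuclei with *Ptprz1* and 14.1% (10.5 to 18.3) of those without it, and in 18.5% (14.3 to 23.4) of male nuclei with *Ptprz1* and 12.04% (9.36 to 15.2) of those without it. *Ptprz1* was found in 44.8% (37.6 to 52.1) of female nuclei with *Fabp7* and 37.02% (32.03 to 42.2) of those without it, and in 41.4% (36.4 to 46.5) of male nuclei with *Fabp7* and 32.3% (27.9 to 36.97) of those without it. For these last pairs the share was the higher with the partner in each library, but the intervals overlapped. Beside *Sox10* the order was turned, and *Ptprz1* was found in 33.9% (25.3 to 43.5) of female nuclei with *Sox10* and 41.2% (36.6 to 45.9) of those without it, and in 33.3% (25.4 to 42.1) of male nuclei with *Sox10* and 37.2% (33.6 to 40.96) of those without it, again with intervals that overlapped. *Ednrb* was found in 16.2% (11.2 to 22.1) of female nuclei with *Fabp7* and 8.56% (5.89 to 11.9) of those without it, but in 14.9% (11.5 to 18.9) of male nuclei with *Fabp7* and 14.7% (11.5 to 18.4) of those without it. Nuclei of a library share their surrounding RNA, the clusters differ in these genes, and no test was made on these shares.

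**Figure D5:**
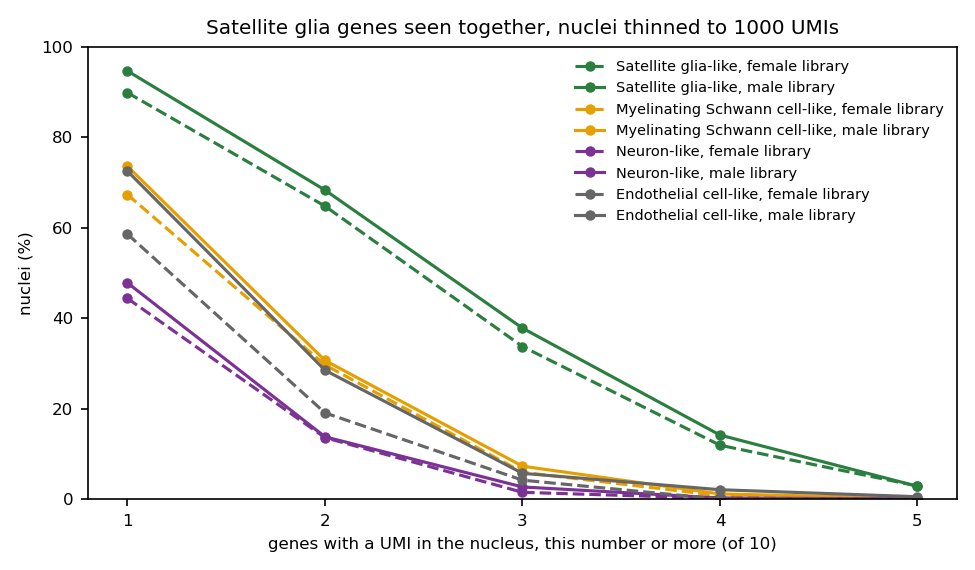
Percent of nuclei (y axis) with a UMI of at least 1 to 5 of the 10 genes (x axis) after thinning to 1000 UMIs, by class and library (dashed female, solid male). Satellite glia-like curves lie above the others at every number, with 64.8% and 68.4% of nuclei at 2 genes or more against 29.7% and 30.7% of Schwann cell-like nuclei.

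Across 40 points (20 clusters in each library), levels of some of the genes ran together. The Pearson correlation of log2 levels was 0.91 for *Fabp7* with *Apoe*, 0.83 for *Fabp7* with *Ednrb*, 0.87 for *Apoe* with *Ednrb* and 0.86 for *Ptprz1* with *Acsbg1*. For *Glul* with *Fabp7* it was 0.26. Among 13422 other genes, those most like *Sox10* were *Gjc3* (0.96), *Adamts20* (0.96) and *Plekha4* (0.95), and those most like *Acsbg1* were *Bcan* (0.92), *Mmd2* (0.90) and *Lgr5* (0.87). Nearest to *Ptprz1* were *Lgr5* (0.87), *Acsbg1* (0.86) and *Kctd1* (0.85), and to *Sox2* *Rab38* (0.88), *Gpt2* (0.84) and *Cmtm5* (0.83). *Fabp7* had *Apoe*, *Ednrb* and *Cst3* (0.81) nearest, *Apoe* had *Cst3* (0.88) beside *Fabp7* and *Ednrb*, and *Ednrb* had *Ttyh1* (0.87) beside *Apoe* and *Fabp7*. *Glul* was nearest to *Cavin1* (0.83), *Fcgrt* (0.81) and *Gng11* (0.80), and *Gja1* to *Arhgap29* (0.86), *Cald1* (0.85) and *Bmp6* (0.85). The points share libraries, surrounding RNA and a total of UMIs, so that these values are a description.

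Genes that work with the 10 were taken from lists of each pathway, counted by the same rule and set beside the same share of all genes (against neuron-like nuclei 11.0% higher and 11.6% lower, against Schwann cell-like nuclei 5.07% and 4.16%). Log2 ratios of satellite glia-like nuclei are given for the female and then the male library. Of these lists, *Kcnj10*, *Slc1a3*, *Foxd3*, *Fasn* and *Hmgcs1* are also among the markers from which satellite glia-like clusters were named, and *Egr2* among those of Schwann cell-like clusters, so that their direction is in part set by the naming. Of 8 tested genes of glutamate and potassium handling, 6 were higher than in neuron-like nuclei, among them *Slc1a2*, *Slc1a3*, *Kcnj10*, *Kcnj16* and *Atp1b2*, and 0 lower, with a median of 2.81. *Kcnj16* was at 4.08 and 3.07, and *Kcnj10*, the inward rectifier of satellite glia, at 3.83 and 3.14. Compared with Schwann cell-like nuclei, 4 of 8 were higher, *Slc1a2*, *Slc1a3*, *Kcnj10* and *Kcnj16*, 0 lower, with a median of 1.28. In that comparison *Kcnj16* was at 3.93 and 3.43 and *Slc1a2*, a glutamate transporter, at 2.63 and 3.23. These ratios rest on few UMIs in Schwann cell-like nuclei, 1 female and 3 male for *Kcnj16* and 15 and 4 for *Slc1a2*. Cluster 17 held 3 and 0 UMIs of *Kcnj16*. Satellite glia-like levels were 0.752 female and 0.229 male for *Slc1a2* and 1.68 and 0.495 for *Slc1a3*. In cluster 10 they were 1.16 and 0.297 for *Slc1a2* and 2.90 and 0.891 for *Slc1a3*. Clusters 2 (0.433 and 0.333) and 17 (0.554 and 0.338) had less *Slc1a3*, nearer to the Schwann cell-like 0.362 and 0.219. Barrier fibroblast-like (6.52 and 4.71) and adipocyte-like nuclei (2.48 and 3.51) had more *Slc1a3*. For *Kcnj10* (0.733 and 0.654) and *Kcnj16* (0.177 and 0.204) the libraries were nearer to each other.

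The gap junction list had 3 of 4 tested genes higher than in neuron-like nuclei, *Gjb6*, *Gjc1* and *Gjc3*, 0 lower and a median of 1.85. *Gjc3*, which encodes a connexin of glia, was at 4.35 and 4.05 and *Gjc1* at 2.22 and 1.56. Over both libraries, *Gjb6* had a level of 0.067 in satellite glia-like nuclei, from 13 female and 14 male UMIs. This was no higher than the macrophage-like 0.0889, and barrier fibroblast-like nuclei had 2.32. *Gjc1* had 0.124, below the endothelial cell-like 0.408. *Gjc3* had 2.13, above the macrophage-like 0.356 and the endothelial cell-like 0.258. When Schwann cell-like nuclei were the reference, 0 of 5 were higher and 1 lower, *Gjb1*, the connexin of myelinating Schwann cells, at -1.86 and -3.43, with a median of -0.08 and *Gjc1* at 0.28 and 0.72. The SOX and neural crest list had 7 of 11 higher than in neuron-like nuclei (*Sox5*, *Sox6*, *Foxd3*, *Tfap2a*, *Zeb2*, *Pou3f1* and *Egr2*) and *Sox11* lower, with a median of 2.29, *Sox6* at 4.54 and 4.06 and *Tfap2a* at 4.57 and 3.69. Of 9 tested against Schwann cell-like nuclei, 3 were higher (*Sox5*, *Sox6* and *Tfap2a*) and 2 lower (*Pou3f1* and *Egr2*, factors of myelination), with a median of 0.54. *Sox5* was at 2.39 and 2.45 and *Egr2* at -2.68 and -3.08. Other classes held *Sox5* and *Sox6* as well. Over both libraries *Sox5* had a level of 2.247 in satellite glia-like, 2.205 in endothelial cell-like and 13.65 in adipocyte-like nuclei. *Sox6* had 6.903, against 6.956 in adipocyte-like nuclei, and *Tfap2a* had 0.181, against 0.0458 there.

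Of 22 cholesterol and fatty acid synthesis genes, 1 was higher than in neuron-like nuclei, *Srebf1*, a regulator of lipid synthesis, at 1.77 and 1.25, and 0 lower, with a median of 0.45 and *Insig1* at 1.42 and 0.73. None passed against Schwann cell-like nuclei, 0 higher and 0 lower, with a median of 0.24, *Lss* at 1.53 and 0.47 and *Acsl6* at 1.12 and 0.86. Of 11 apolipoprotein and lipoprotein receptor genes, 4 were higher than in neuron-like nuclei, *Apod*, *Vldlr*, *Abca1* and *Lpl*, and 1 lower, *Lrp8*, with a median of 0.67. *Vldlr*, the very low density lipoprotein receptor, was at 2.52 and 2.58 and *Lrp8*, a receptor for apolipoprotein E of neurons, at -2.78 and -1.63. Over both libraries, satellite glia-like levels of *Lpl* (0.286), *Apod* (4.05) and *Abca1* (1.89) were below those of other classes. Adipocyte-like nuclei had 10.2 of *Lpl*, fibroblast-like nuclei 12.1 of *Apod* and macrophage-like nuclei 2.88 of *Abca1*. *Vldlr* had 0.874, against 0.107 in macrophage-like and 0.915 in adipocyte-like nuclei. In the comparison with Schwann cell-like nuclei 1 of 9 was higher, *Vldlr* at 1.91 and 2.34, and 0 lower, with a median of 0.10 and *Apod* at -0.80 and -0.97. Of the other fatty acid-binding proteins, 1 of 3 was higher than in neuron-like nuclei, *Fabp4* at 1.92 and 1.798. The median was 0.57, with *Fabp5* at 0.61 and 0.53. *Fabp4* was not particular to satellite glia-like nuclei, where its level was 2.44 female and 0.397 male. Macrophage-like nuclei had 2.71 and 0.345, endothelial cell-like nuclei 4.39 and 1.24, and adipocyte-like nuclei 19.94 and 16.62. Over Schwann cell-like nuclei 0 of 3 passed either way, with a median of -0.14, *Fabp4* at -0.32 and -0.25 and *Fabp3* at -0.32 and 0.04.

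Partners of both receptors were spread over the classes. In the list of PTPRZ1 ligands and partners, *Ptn* and *Tnc* were higher and *Tnr* lower than in neuron-like nuclei among 8 genes, with a median of -0.33. *Tnc*, which encodes tenascin C, was at 2.604 and 3.401 and *Tnr*, tenascin R, at -2.79 and -2.52. Relative to Schwann cell-like nuclei, *Ptn*, which encodes pleiotrophin, was higher at 1.902 and 1.58 and *Nfasc*, neurofascin of the node of Ranvier, lower at -2.76 and -2.05, with a median of 0.57. Neither *Ptn* nor *Tnc* was highest in satellite glia-like nuclei. With both libraries summed, *Ptn* had a level of 5.94 there, 5.54 in endothelial cell-like and 14.56 in barrier fibroblast-like nuclei. *Tnc* had 0.181, against 0.2997 in fibroblast-like nuclei. Of 5 endothelin genes with enough UMIs, 0 were higher than in neuron-like nuclei and *Ece2*, an endothelin-converting enzyme, was lower at -1.696 and -1.303, with a median of 0.48 and *Ece1* at 0.89 and 0.67. Against Schwann cell-like nuclei 1 of 3 was higher, *Ednra*, the endothelin A receptor, at 1.27 and 1.52, and 0 lower, with a median of 0.86 and *Ece1* at 1.01 and 0.71. *Edn1*, the ligand, had a level of 1.16 in endothelial cell-like nuclei over both libraries, and one of 0.0323 in satellite glia-like nuclei. Of 7 tested filament and injury genes, *Vim*, *Nes* and *Aqp4* were higher than in neuron-like nuclei and 0 lower, with a median of 0.96, *Aqp4*, a water channel of astrocytes, at 2.89 and 3.43 and *Vim*, vimentin, at 1.78 and 1.61. Against Schwann cell-like nuclei 1 of 6 was higher, *Aqp4* at 3.34 and 2.42, and 1 lower, *Nes*, nestin, at -2.43 and -2.16, with a median of -0.19. Schwann cell-like nuclei held only 2 female and 6 male UMIs of *Aqp4*. With both libraries summed, *Nes* had a level of 0.0447 in satellite glia-like nuclei, from 7 female and 11 male UMIs, below the endothelial cell-like 0.216. *Vim* had 2.585, below the endothelial cell-like 2.94. *Aqp4* had 0.191, above the endothelial cell-like 0.0166 and the macrophage-like 0.0356.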

How the data were processed

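Single nuclei of vagus nerve ganglia, isolated with Triton X-100, were sequenced with the 10x 3' v3.1 kit. UMIs of each gene were counted by the authors in Cell Ranger 7.1.0 against mm10 with a transgene added, introns included. The annotation release was not given in the sources used here. They kept nuclei with a DIEM debris score under 0.5, over 250 genes and over 1000 UMIs, and pooled the libraries with normalisation for mapped reads. The deposited values are therefore counts of UMIs after that normalisation, and the files hold 0 further columns of per-sample values. Doublets were neither called nor removed here.

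Nuclei were grouped by principal components (10), a graph of nearest neighbours and Louvain clustering into 20 clusters (Python 3.11.15, numpy 2.4.6, scipy 1.17.1, pandas 2.3.3, scikit-learn 1.9.0, igraph 0.11.9, matplotlib 3.10.9). The 10 genes, sex-linked genes and the genes of the study's list of sex differences (130 genes in all) were left out of this step. Clusters were named by the marker list whose mean log2 fold was highest (0.05 added to levels), leaving out the astrocyte, oligodendrocyte, oligodendrocyte precursor and sympathetic neuron lists, if at least 3 of its markers with at least 10 UMIs reached 1.5-fold.

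The genes and lists were chosen with earlier results of these data known. Levels are summed UMIs per 10000. Log2 ratios had 0.5 added to both sums, and a gene counted as higher or lower if it passed 2-fold in each library with at least 20 UMIs over both classes in each. Intervals are at 95%. The 2-fold rule was tried on simulated counts that held counting error alone. Changes well past 2-fold were planted there in genes with many UMIs. The rule was not tried on planted changes near 2-fold or in sparse genes, nor with variation between mice.

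Named were the 10 genes, the 3 genes most correlated with each (at least 200 UMIs, clusters with at least 20 nuclei in a library), and from each list the 2 with the largest ratio in each class comparison, besides those counted as higher or lower and *Edn1*, named after its values were seen. Some list genes are not reported here by name. Alternatives were deeper nuclei, other genes, scaling or 30 components for clustering, other weights of nuclei and clusters, thinned nuclei, other folds (1.5 and 3), other minimums (none and 100 UMIs), summed libraries and, chosen after seeing the data, the neuron-like class without cluster 15.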

Additional observations from a re-analysis of the deposited data

Results flagged for a closer look

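In these results the sign of a log2 ratio differed between the female and the male library. The difference between the libraries was not tested, since there is 1 library of each sex. *Sox10* in satellite glia-like over myelinating Schwann cell-like nuclei was -0.07 (-0.31 to 0.18) in the female and 0.05 (-0.17 to 0.28) in the male library, and both intervals held 0. *Ednrb* in cluster 10 over cluster 2 was -0.11 (-0.57 to 0.38) and 0.36 (0.05 to 0.66), where the female interval held 0. *Ptprz1* in the neuron-like cluster 15 over cluster 9 was -0.31 (-0.74 to 0.08) in the female library, which has 36 nuclei in cluster 15, and 0.67 (0.47 to 0.87) in the male library. *Fabp3*, another fatty acid-binding protein, was at -0.32 and 0.04 in satellite glia-like over myelinating Schwann cell-like nuclei.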

How the results depend on the processing

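No paired analysis was possible because each sex has 1 library and no result comes from a test. Between the libraries, 0 genes passed 2-fold in satellite glia-like nuclei and 1 (*Fabp7*) passed 1.5-fold, as did 18.7% of all genes. Between satellite glia-like clusters, 3 genes passed 2-fold, 6 passed 1.5-fold (*Fabp7*, *Ednrb*, *Apoe*, *Gja1*, *Ptprz1* and *Acsbg1*, with 47.0% of all genes) and 1 passed 3-fold (*Ptprz1*, with 3.02% of all genes), by the construction of these limits. The count against neuron-like nuclei ranged from 6 of 7 to 9, and *Glul* was added with only nuclei of over 2000 UMIs, with the 10 genes kept for clustering, with genes scaled within each library, at 1.5-fold and without cluster 15. Against Schwann cell-like nuclei it ranged from 5 to 7, and *Gja1* and *Sox2* were lost when each cluster counted the same, where the cause was not tested. No ratio that passed 2-fold changed sign in the settings run. Of 117 ratios to neuron-like nuclei recomputed under other settings, 97 moved by no more than the gap between the libraries and all 117 kept their sign, and of 108 ratios to Schwann cell-like nuclei 104 kept theirs. Of 81 ratios of male to female, 73 kept theirs. Ratios of *Fabp7* and *Apoe* to neuron-like nuclei were 1.59 instead of 2.41 and 1.64 instead of 2.42 when each cluster counted the same. Over satellite glia-like nuclei as a class, the comparison of libraries was not run with genes scaled within each library or with 30 principal components, because a satellite glia-like cluster then had a marker of nonmyelinating Schwann cells among its 10 leading genes and none of its own, and under that scaling 1 of 9, 0 of 9 and 1 of 7 genes passed 2-fold within clusters 5, 11 and 14. Depth limits *Gfap*, *Sox2* and *Gja1* most.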
